A study of Mus musculus with 9 samples.

Results

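Interferon response genes are the genes that cells switch on when an interferon reaches its receptor. A list of 38 such genes, chosen by name, was followed in primary mouse microglia exposed to media conditioned by glioma cells. Of the 38 genes, 33 were represented on the arrays by a probe set annotated to that symbol alone, among 17097 genes in all. The other 5 (Isg15, Oas1a, Ifi44, Bst2 and Phf11d) were not analysed here. Where a gene had several probe sets, the brightest over all arrays stood for it.

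Microglia came from the cortices of C57BL/6J mice aged P0-P2 and were cultured in medium with 10% serum for 48 h after seeding. Control cells were left unstimulated, GCM LN18 cells received for 6 h fresh glioma-conditioned medium (GCM) from the human glioblastoma line LN18, and GCM U87-MG cells received that of the human glioblastoma line U87-MG. Each group held 3 arrays, numbered as replicates 1 to 3, and the submitters describe the replicates as coming from separate cortical cultures. The comparison sets mouse microglia in medium conditioned by human glioma cells against unstimulated microglia. Both conditioned media are products of human cells applied to mouse cells, and each line is a single source of medium. No group is described as given fresh unconditioned medium, so a change of medium was not tested apart from the glioma products.

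Type I interferons bind the receptor formed by Ifnar1 and Ifnar2, and the kinases Jak1 and Tyk2 then activate a transcription complex that contains Stat2 and Irf9. It binds the interferon-stimulated response element, a repeat of GAAA, in the promoters of target genes. The products degrade viral RNA, block translation, sense foreign nucleic acid or feed back on the pathway, and microglia are among the brain cells that respond readily to interferon. Interferon gamma acts through another receptor, and is the stronger inducer of the guanylate-binding proteins and the immunity-related GTPases.

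Promoters of members were read from RefSeq (GRCm38.p6). The 250 bases before the start were searched on both strands for GAAA repeated with any 2 bases between, the core of the interferon-stimulated response element, with overlapping matches allowed. Of 29 promoters of 24 measured members, 11 held it (37.9%), as did 2.98% of all 32851 promoters. The interferon gamma-type motif TTCNNNGAA was held by 3 of the 29 (10.3%) and by 7.02% of all. The genes were chosen by name as interferon targets, so a share above that of all promoters says nothing about these arrays. No match to the GAAA repeat was found for Xaf1, Ifih1, Cmpk2, Ddx58, Ifit2 and Irf9, among others. The stretches around the matches are shown for some of the members described below, with the match in capitals.
Ifit1, chr19:34640770-34640828, plus strand: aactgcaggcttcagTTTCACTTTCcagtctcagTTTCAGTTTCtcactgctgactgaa
Ifit3, chr19:34583358-34583431, plus strand: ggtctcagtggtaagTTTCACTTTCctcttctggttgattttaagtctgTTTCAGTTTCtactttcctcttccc
Rsad2, chr12:26456548-26456587, minus strand: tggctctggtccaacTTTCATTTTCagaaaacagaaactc
Gbp2, chr3:142620589-142620628, plus strand: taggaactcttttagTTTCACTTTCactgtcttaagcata
Gbp3, chr3:142559984-142560029, plus strand: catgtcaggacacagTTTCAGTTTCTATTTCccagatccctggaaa
Igtp, chr11:58199507-58199546, plus strand: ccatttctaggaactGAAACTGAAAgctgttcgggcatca

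The values were log2 signals, and the median over genes was 4.34. Array medians over all probe sets lay between 3.39 and 3.41. For every probe set, the 3 arrays of each replicate number had the same mean within 1e-06. A high control array and low GCM arrays of the same number therefore cannot be told apart, and differences within a number are the measure that this property leaves intact. Of the 11 microglia markers measured, Cx3cr1, Csf1r, Aif1, Itgam, Trem2, Fcrls, C1qa and C1qb were at 7.92 or more on every array, whereas the highest array of P2ry12 was at 4.002 and that of Tmem119 at 4.96. Mean signals over the marker lists of lymphocytes with plasmacytoid dendritic cells (9 genes), fibroblasts with endothelium (9), astrocytes (7), neurons (6) and oligodendrocyte lineage cells (6) lay between 2.81 and 3.42 on every array. In that order, 8, 8, 6, 6 and 5 of these genes stayed below 5 on every array, so single markers were brighter than their list mean. RNA from fewer cells of a type and less RNA per cell cannot be told apart in such samples.

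The interferon response genes did not move one way in GCM. In replicate 1 most of them were lower in both media than in the control, and in replicates 2 and 3 most were higher, Ifitm3 being the plainest exception. The mean signal over the 33 genes was 6.85, 5.92 and 5.95 on control arrays 1, 2 and 3. On the GCM LN18 arrays it was 6.04, 6.61 and 6.52, and on the GCM U87-MG arrays 6.03, 6.39 and 6.46. The control array of replicate 1 was the highest of the 9 and the other 2 controls were the lowest, so that control and GCM arrays overlapped. The mean over all genes stayed between 5.07 and 5.08.

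**Figure D1:**
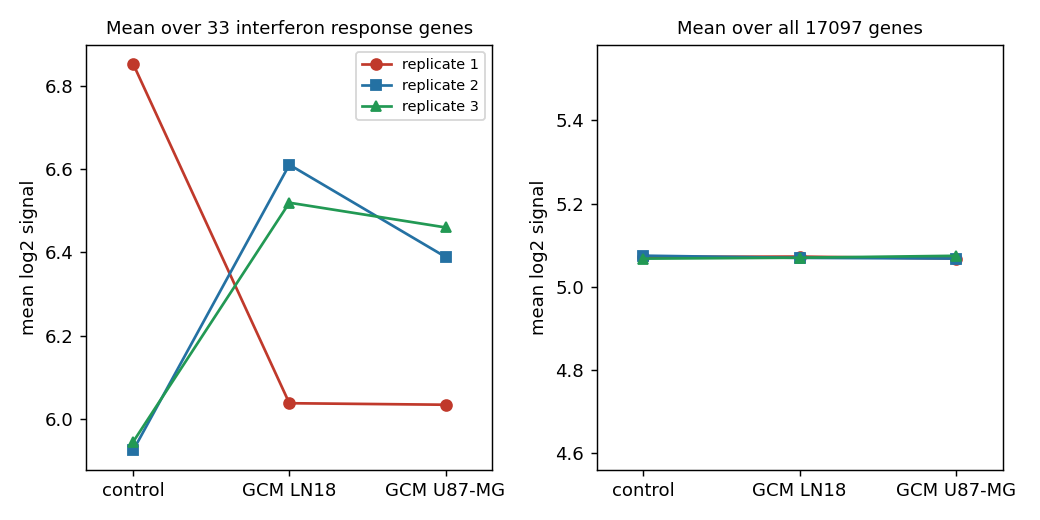
Mean log2 signal over the 33 interferon response genes (left) and over all 17097 genes (right) on each of the 9 arrays, with a line joining the arrays of 1 replicate number and both axes spanning the same range. Control replicate 1 stands at 6.85 and its GCM arrays at 6.04 and 6.03, whereas controls 2 and 3 stand at 5.92 and 5.95, below all their GCM arrays, while the mean over all genes is flat.

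In replicate 1 the 33 genes were all lower in GCM LN18 than in the control, from -0.04 (Oas3) to -2.24 (Gbp2), with a median of -0.81. In replicate 2 the median difference was 0.61, and in replicate 3 it was 0.41, with 32 of 33 genes higher in each. The largest differences were 1.96 for Ifit3 in replicate 2 and 1.79 for Ifit2 in replicate 3. For GCM U87-MG the median differences were -0.78, 0.36 and 0.29, and they ran from -2.23 (Gbp2) in replicate 1 to 1.87 (Rsad2) in replicate 3. The median over all genes was between -0.01 and 0.00 in each of these differences. In GCM LN18, 49.6%, 45.0% and 46.4% of all genes were higher than the control in replicates 1, 2 and 3. In GCM U87-MG the shares were 48.3%, 44.3% and 48.7%.

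Lower in replicate 1 and higher in replicates 2 and 3 described 32 of the 33 genes for GCM LN18, against 9.14% of all genes. For GCM U87-MG it described 27 of 33, against 9.31% of all genes. The 2 media were set against the same control arrays, so these counts do not stand apart from each other. Control array 1 was the highest of the 9 arrays for 23 genes, against 17.2% of all genes. For 28 genes both other controls lay below the 4 GCM arrays of replicates 2 and 3, against 10.3% of all genes. Since the arrays of each number share a mean, these rankings restate the differences within a number and are no separate evidence. Among the other probe sets of the same genes, 12 of 16 had the pattern with each medium, and those of Ddx58, Dhx58 and Rtp4 that lacked it did so with both.

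**Figure D2:**
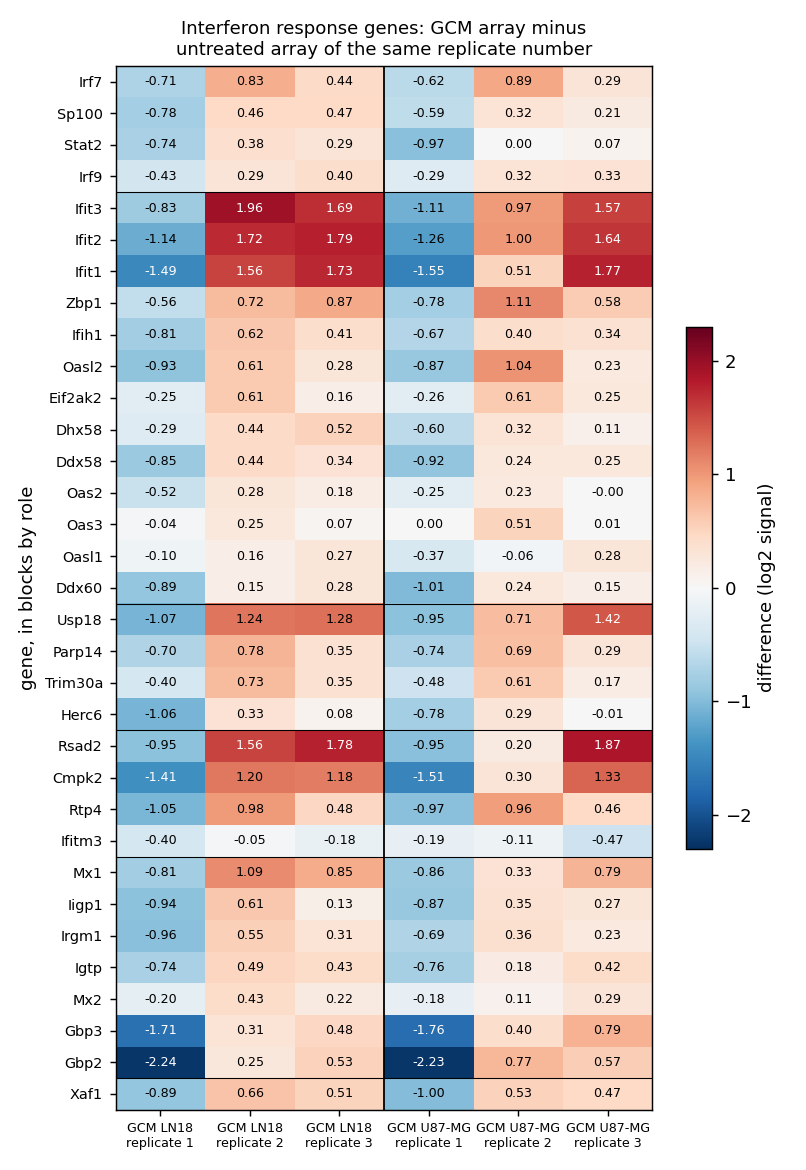
Difference in log2 signal between each GCM array and the control array of the same replicate number (columns) for the 33 genes (rows), in blocks from the top by role: transcription factors, RNA-binding effectors and sensors, protein modification, membrane and lipid-droplet effectors, dynamin-like GTPases and Xaf1. Columns of replicate 1 are blue (lower in GCM) down to -2.24 for Gbp2, save for Oas3 in GCM U87-MG at 0.005. Columns of replicates 2 and 3 are mostly red (higher) up to 1.96 for Ifit3, and Ifitm3 is blue throughout.

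With groups compared over all 9 arrays, no interferon response gene passed the test in either medium. The 0 of 33 called in GCM LN18 compares with 894 of 17097 genes (5.23%) over the array, and the 0 of 33 in GCM U87-MG with 259 (1.51%). At an unadjusted p under 0.05, 1 gene of 33 passed in each medium, against 20.6% of all genes in GCM LN18 and 17% in the other medium. It was Ifitm3, which was lower. The median log2 fold change of the 33 genes was 0.10 in GCM LN18, with 22 genes positive, and 0.04 in GCM U87-MG, with 18 positive. Standard errors ran from 0.09 to 0.56, with a median of 0.23, and the 95% interval of the fold change held 0 for 32 of 33 genes in each medium. These come from the fit by groups, which counts 6 residual degrees of freedom where the fit with the replicate block counts 4. Since arrays of each number share a mean, such standard errors and intervals understate the error. Tests were limma's moderated statistics with Benjamini-Hochberg adjustment over all genes. Once the replicate number entered the model, 150 genes (0.877%) were called in GCM LN18, 8 (0.0468%) in GCM U87-MG, and again 0 of 33 in each. In that model 0 and 1 of the 33 had an unadjusted p under 0.05, against 12.2% and 9.12% of all genes.

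**Figure D3:**
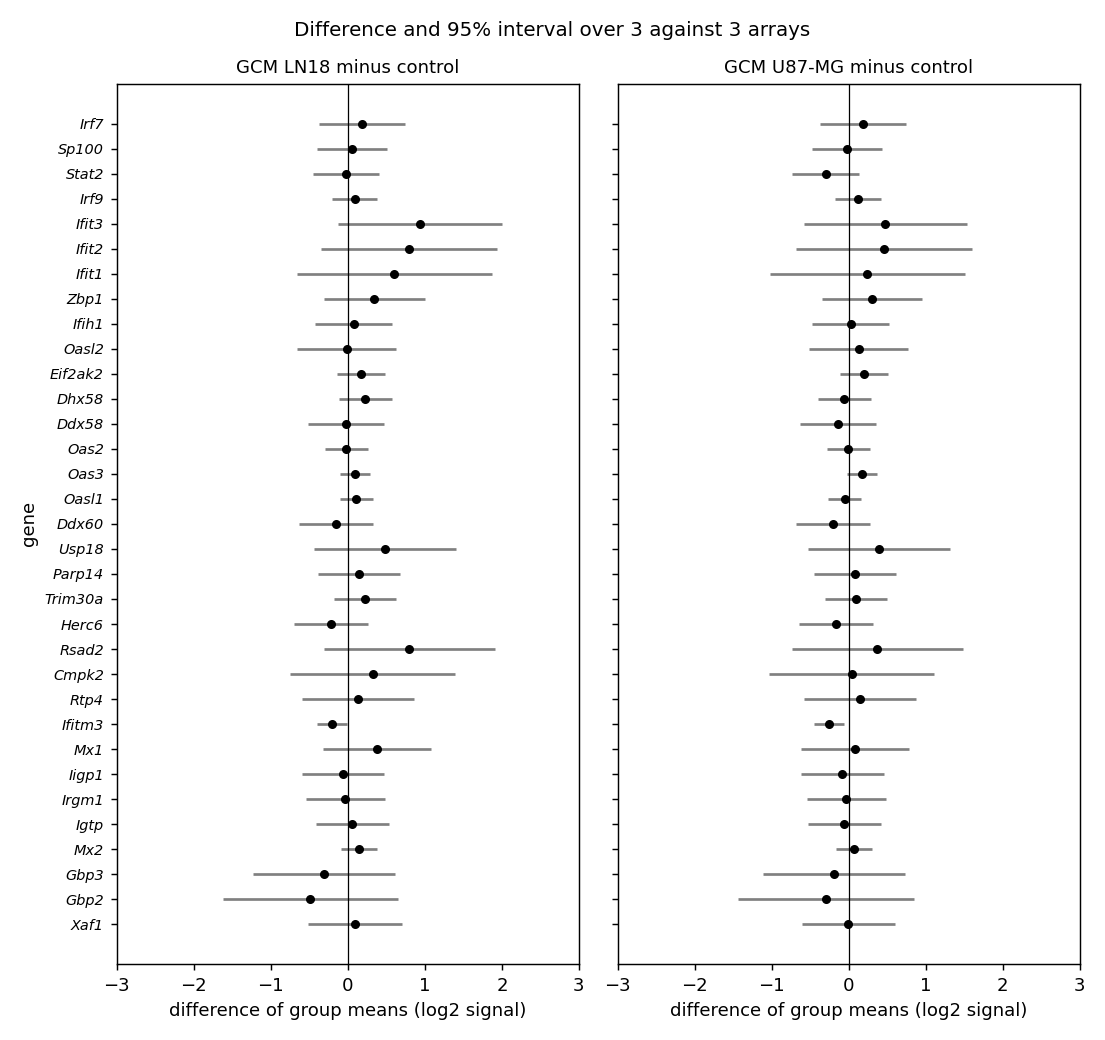
Difference of group means in log2 signal (points) with its 95% interval from limma (lines) for each of the 33 genes, GCM LN18 (left) and GCM U87-MG (right) against control, 3 arrays a group. The intervals are from the fit without the replicate block and understate the error. Intervals cross 0 for 32 of 33 genes in each panel, the exception being Ifitm3, and are widest for Ifit1, Ifit2, Ifit3, Rsad2, Gbp2 and Cmpk2.

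The spread among the control arrays restates the same differences, since the arrays of each number share a mean. The median over the 33 genes of the range across the 3 controls was 0.85, against 0.14 over all genes. Among genes with a mean signal of at least 5 the medians were 0.91 for 24 members and 0.16 for 7616 genes. Ifit1 had the widest range, 2.18, and Ifitm3 the narrowest, 0.16.

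The IFIT proteins bind viral RNA and block its translation. Ifit1 measured 7.62, 5.92 and 5.44 on control arrays 1 to 3, 6.13, 7.48 and 7.17 on the GCM LN18 arrays and 6.07, 6.43 and 7.21 on the GCM U87-MG arrays. Its 3 control arrays spanned the values of all GCM arrays. In GCM LN18 it was 2.81-fold lower in replicate 1, then 2.96-fold and 3.31-fold higher in replicates 2 and 3. Over the groups the log2 fold change was 0.60 ± 0.56 (SE, adjusted p = 0.591) in GCM LN18 and 0.24 ± 0.56 (adjusted p = 0.863) in GCM U87-MG. Ifit2 measured 8.12, 6.42 and 6.18 in controls, 6.99, 8.14 and 7.97 in GCM LN18 and 6.86, 7.42 and 7.82 in GCM U87-MG. Ifit3 measured 7.66, 6.04 and 5.92 in controls, 6.83, 7.99 and 7.61 in GCM LN18 and 6.55, 7.01 and 7.50 in GCM U87-MG. Both followed Ifit1, with the controls of replicates 2 and 3 below every GCM array. Ifit3 had the highest fold change of the 33 genes in each medium, 0.94 and 0.48 on the log2 scale, neither past the test.

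Rsad2 encodes viperin, an antiviral enzyme of the endoplasmic reticulum and lipid droplets, and Cmpk2, its neighbour in the genome, encodes a mitochondrial nucleotide kinase. Rsad2 measured 8.66, 7.44 and 6.81 in controls, 7.71, 8.997 and 8.59 in GCM LN18 and 7.70, 7.64 and 8.68 in GCM U87-MG. In replicate 2 it differed from the control by 0.20 in U87-MG medium and by 1.56 in LN18 medium, and in replicate 3 by 1.87 and 1.78. Cmpk2 measured 7.88, 6.40 and 6.06 in controls, 6.46, 7.60 and 7.24 in GCM LN18 and 6.36, 6.70 and 7.40 in GCM U87-MG. Its arrays stood in the same order as those of Rsad2 within each replicate number. Rtp4, a transmembrane chaperone of receptors, measured 9.29, 7.97 and 8.31 in controls, 8.25, 8.95 and 8.78 in GCM LN18 and 8.32, 8.93 and 8.77 in GCM U87-MG. For Rtp4 the 2 media differed by at most 0.08 within any replicate number.

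Ifitm3, which blocks entry of viruses from endosomes, went its own way. It measured 10.88, 10.74 and 10.90 in controls, 10.48, 10.69 and 10.73 in GCM LN18 and 10.69, 10.63 and 10.43 in GCM U87-MG. Every GCM array lay below every control array, by the least margin between 10.73 and 10.74. Lower than the control of the same number in all 3 replicates described 16.7% of all genes with LN18 medium and 13.3% with U87-MG medium. The fold change was -0.21 ± 0.09 (SE, unadjusted p = 0.0371, adjusted p = 0.210 by limma) in GCM LN18 and -0.26 ± 0.09 (unadjusted p = 0.0144, adjusted p = 0.172) in GCM U87-MG. It did not pass the adjusted test, and with the block the unadjusted p was 0.0666 and 0.0305.

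Usp18 removes ISG15 from proteins and dampens signalling at the interferon receptor. It measured 7.004, 5.68 and 5.43 in controls, 5.93, 6.92 and 6.71 in GCM LN18 and 6.05, 6.39 and 6.85 in GCM U87-MG. Parp14, an ADP-ribosyltransferase, Trim30a, a TRIM-family regulator, and Herc6, an ISG15 ligase, belong to the same group of 4. Their differences in GCM LN18 ran from -1.06 (Herc6, replicate 1) to 0.78 (Parp14, replicate 2). Herc6 in GCM U87-MG was the member of this group outside the common pattern, with -0.01 in replicate 3.

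Oasl2 belongs to the oligoadenylate synthetase family, whose enzymes activate RNase L. It measured 6.73, 5.57 and 5.95 in controls, 5.79, 6.18 and 6.24 in GCM LN18 and 5.86, 6.61 and 6.18 in GCM U87-MG. In replicate 2 its value in GCM U87-MG was above that in GCM LN18, the reverse of the IFIT genes. Oas2, Oas3 and Oasl1 of the same family differed from control by between -0.52 and 0.51 in any replicate. Oas3 and Oasl1 stayed below 5 on every array, and Oas2, Oas3 and Oasl1 were all outside the common pattern in GCM U87-MG.

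The RNA helicases Ifih1 (MDA5), Ddx58 (RIG-I) and Dhx58 (LGP2) sense viral RNA. Ifih1 measured 7.56, 6.72 and 6.81 in controls, 6.75, 7.34 and 7.22 in GCM LN18 and 6.89, 7.13 and 7.16 in GCM U87-MG. Ddx58 measured 7.77, 6.95 and 6.98 in controls, 6.92, 7.40 and 7.32 in GCM LN18 and 6.86, 7.19 and 7.24 in GCM U87-MG. For both genes control array 1 was the highest of the 9 and the other 2 controls lay below the GCM arrays of replicates 2 and 3. Dhx58, the helicase Ddx60, the nucleic acid sensor Zbp1 and the kinase Eif2ak2 (PKR), which halts translation, all had the common pattern in both media. Their differences in replicate 1 ran from -1.01 (Ddx60, GCM U87-MG) to -0.25 (Eif2ak2, GCM LN18).

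**Figure D4:**
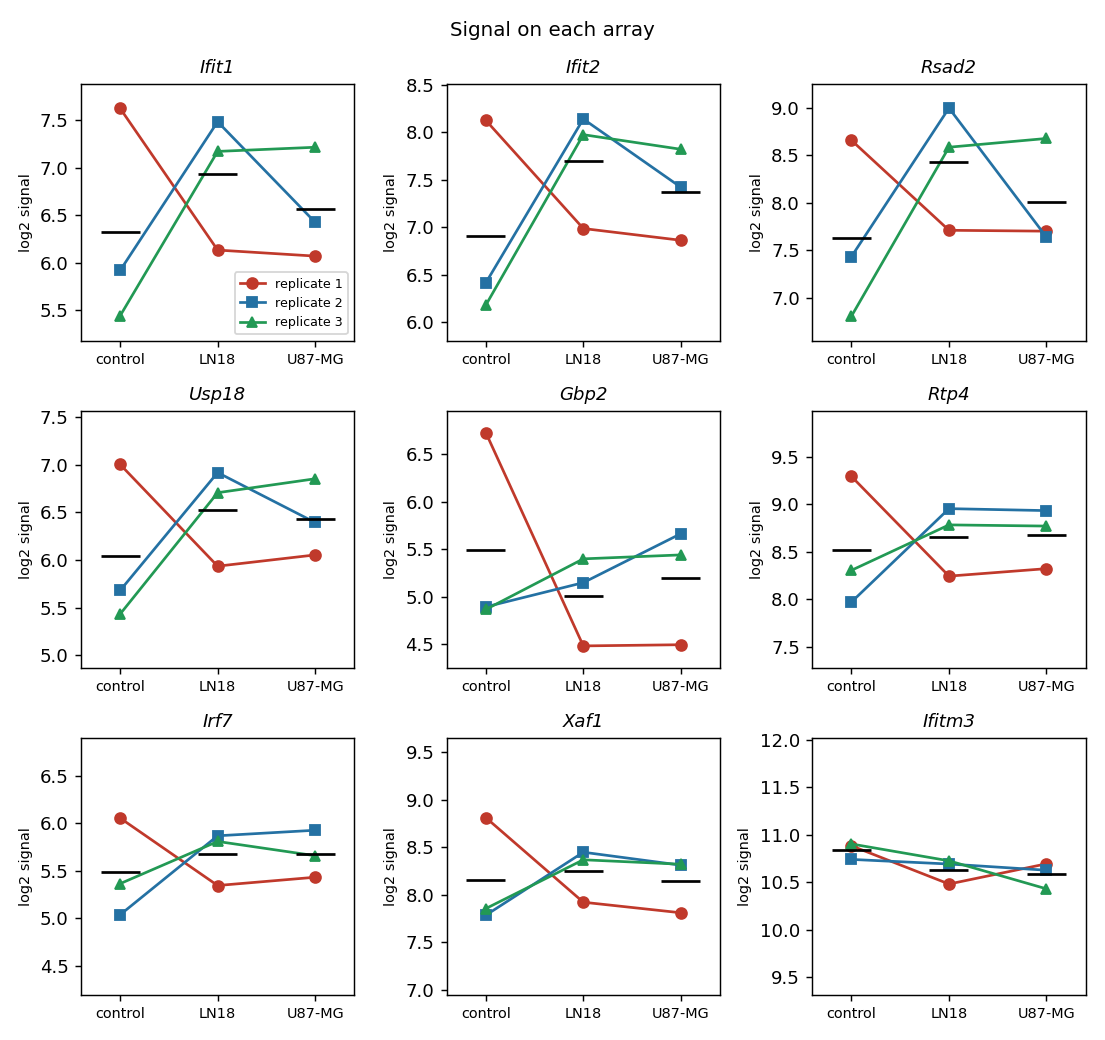
Log2 signal of 9 of the genes on each array, by group along the horizontal axis, with a line for each replicate number and a black bar at each group mean, every panel spanning the same height. For Ifit1 control replicate 1 stands at 7.62 and its GCM arrays at 6.13 and 6.07, while controls 2 and 3 stand at 5.92 and 5.44 and their GCM arrays above them, whereas Ifitm3 stays between 10.43 and 10.90.

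Gbp2 and Gbp3 are guanylate-binding proteins, GTPases that attack the membranes around intracellular microbes. Gbp2 measured 6.73, 4.89 and 4.87 in controls, 4.48, 5.15 and 5.40 in GCM LN18 and 4.50, 5.66 and 5.44 in GCM U87-MG. Gbp3 measured 4.35, 2.96 and 2.77 in controls, 2.64, 3.27 and 3.25 in GCM LN18 and 2.59, 3.36 and 3.57 in GCM U87-MG. For both genes control array 1 stood above each other array. Gbp2 was 4.73-fold and 4.69-fold lower in the 2 media in replicate 1, and 1.19-fold to 1.70-fold higher in replicates 2 and 3. Over the groups the fold change of Gbp2 was negative, -0.49 ± 0.50 (SE, adjusted p = 0.634) in GCM LN18, whereas those of the 3 IFIT genes were positive.

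The immunity-related GTPases Igtp, Irgm1 and Iigp1 act at the same membranes. Their differences from control were between -0.96 and -0.69 in replicate 1 and between 0.13 and 0.61 in replicates 2 and 3, over both media. Mx1 and Mx2 are dynamin-like antiviral GTPases, and their differences ran from -0.86 (Mx1) in replicate 1 to 1.09 (Mx1) in replicate 2. Mx2, Gbp3 and Iigp1 stayed below 5 on every array. Xaf1, a pro-apoptotic protein, measured 8.81, 7.79 and 7.85 in controls, 7.92, 8.45 and 8.37 in GCM LN18 and 7.81, 8.31 and 8.32 in GCM U87-MG. Of the 33 genes, it was the most like the mean of the others (Pearson r = 0.989 over 9 arrays).

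The transcription regulators of the list had the same course, save for Stat2 in GCM U87-MG. Irf7, which drives interferon production in a feedback loop, measured 6.05, 5.04 and 5.36 in controls, 5.34, 5.87 and 5.81 in GCM LN18 and 5.43, 5.93 and 5.66 in GCM U87-MG. Irf9, the DNA-binding partner of Stat2, measured 7.41, 6.97 and 6.93 in controls, 6.98, 7.26 and 7.33 in GCM LN18 and 7.12, 7.28 and 7.25 in GCM U87-MG. Sp100, a nuclear body protein, measured 5.72, 5.001 and 5.03 in controls, 4.94, 5.46 and 5.50 in GCM LN18 and 5.13, 5.32 and 5.25 in GCM U87-MG. In each of these genes control array 1 was the highest. Stat2 differed by -0.74 in GCM LN18 and by -0.97 in GCM U87-MG in replicate 1, and in replicate 2 its GCM U87-MG array equalled the control (difference 0.00).

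The direction of the median depended on which replicate numbers were kept. Without replicate 1 the median log2 fold change of the 33 genes in GCM LN18 was 0.46, and 32 of the 33 were higher in GCM. The groups of the remaining arrays were then apart enough for 7 genes to pass the test, against 155 of 17097 genes (0.907%). These 7 were Ifit3 (1.82, adjusted p = 0.0406), Ifit2 (1.76, adjusted p = 0.0320), Xaf1 (0.59, adjusted p = 0.0296), Ifih1 (0.52, adjusted p = 0.0422), Sp100 (0.46, adjusted p = 0.0345), Ddx58 (0.39, adjusted p = 0.0422) and Irf9 (0.35, adjusted p = 0.0485). A replicate block on the same 6 arrays left 0 of 33, with a lowest adjusted p of 0.0630, and 29 of 33 at an unadjusted p under 0.05, against 9.49% of all genes. In GCM U87-MG without replicate 1 the median was 0.39 and 0 of 33 passed (27 at an unadjusted p under 0.05, against 14.4% of all genes), against 9 genes in all (0.0526%). Nearly all of the 33 genes were lower in GCM in replicate 1, so leaving it out restates the higher values of the other replicates. The counts without replicate 1 are thus no separate test of a rise. Without replicate 2 the medians were -0.16 in each medium, and without replicate 3 they were -0.07 and -0.14, with 0 of 33 called in each case.

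Between the 2 media no interferon response gene passed the test, and 1 gene of all did (0.00585%, and 0% with the block). The median log2 difference, GCM LN18 minus GCM U87-MG, was 0.06, with 23 of 33 genes positive, against a median of -0.0003 over all genes. The lowest adjusted p among the 33 was 0.498, at an unadjusted p of 0.0953, for Dhx58, so that 0 of 33 had an unadjusted p under 0.05, against 12% of all genes. The 95% interval for Ifit1 ran from -0.91 to 1.62, so that sizeable differences in either direction remain within the error. In replicate 1 the medium-to-medium differences lay between -0.29 and 0.31, and in replicate 3 between -0.31 and 0.41. In replicate 2 they were wider, from -0.51 (Gbp2) to 1.36 (Rsad2). Rsad2, Ifit1 (1.06), Ifit3 (0.99), Cmpk2 (0.90), Mx1 (0.76), Ifit2 (0.72) and Usp18 (0.52) led there, and Gbp2, Oasl2 (-0.43) and Zbp1 (-0.39) stood at the other end. These genes were picked after their values were seen, and replicate 2 is 1 array in each medium, so no test was run on them.

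**Figure D5:**
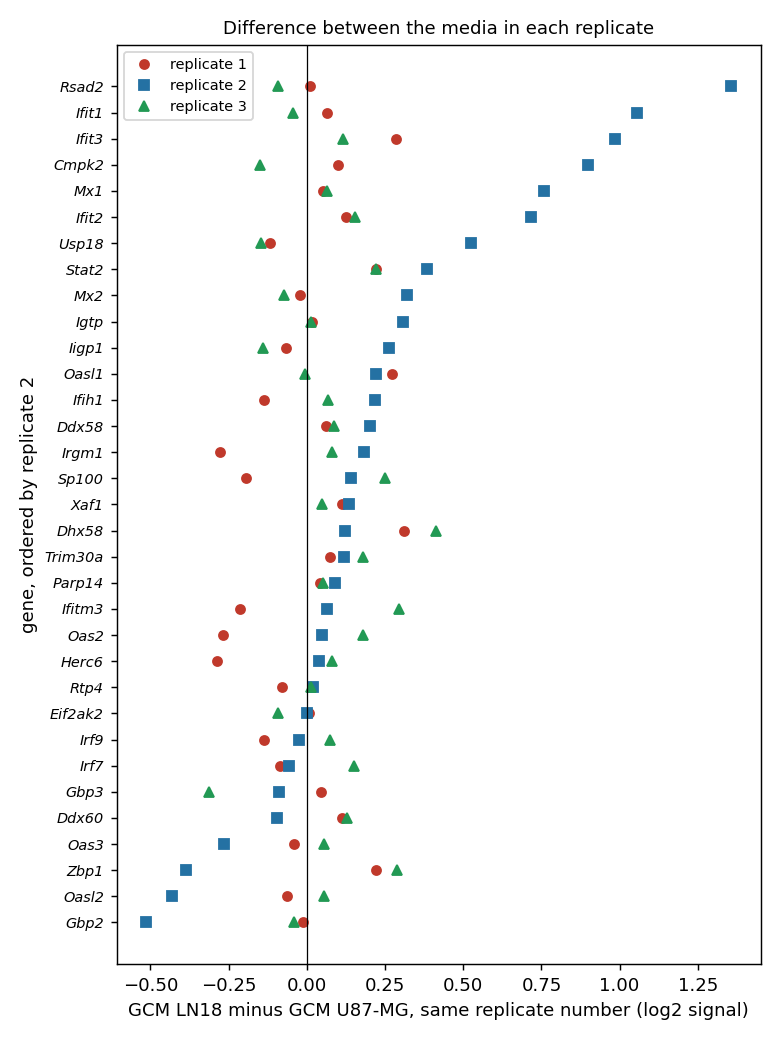
Difference in log2 signal between the GCM LN18 and the GCM U87-MG array of the same replicate number (horizontal axis) for each of the 33 genes, ordered by replicate 2. Replicates 1 and 3 stay between -0.31 and 0.41, while replicate 2 spreads from -0.51 (Gbp2) to 1.36 (Rsad2).

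The 33 genes varied together across the arrays. Over the 528 pairs of genes the median Pearson r across the 9 arrays was 0.82, and 466 pairs exceeded 0.5. The points share their normalization and the equal means of each replicate number, so these values are a description. Ifitm3 (r = 0.05 with the mean of the others) and Oas3 (r = 0.40) were the least alike. Outside the lists, the 10 genes whose signals were most like the mean of the 33, among 7508 with a mean of at least 5, were Rnf114, Irak2, Ifi205, Trim30d, Rnf135, Gm9706, Sema4d, Samd9l, Serpinb9 and Mitd1, with r from 0.957 to 0.988. Rnf114, a ubiquitin ligase and the closest of them, measured 9.66, 9.37 and 9.34 in controls, 9.36, 9.55 and 9.53 in GCM LN18 and 9.36, 9.47 and 9.52 in GCM U87-MG.

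Other interferon targets were taken from a second list of 62 genes, of which 54 were measured. The pattern of the 33 genes was present in 35 of the 54 with LN18 medium and in 27 with U87-MG medium, against 9.14% and 9.31% of all genes. The mean over the 54 was 6.91, 6.46 and 6.51 on the control arrays. In each medium 1 of the 54 was called, against 5.23% of all genes with LN18 medium and 1.51% with U87-MG medium. An unadjusted p under 0.05 was reached by 7 and 2 of the 54, against 20.6% and 17% of all genes. The called gene was Irf8, a myeloid lineage factor. Its log2 fold change was 0.33 ± 0.04 (SE, adjusted p = 0.00310, with the block 0.0480) for LN18 medium. For U87-MG medium it was 0.29 ± 0.04 (adjusted p = 0.0167, with the block 0.174). Irf8 measured 8.55, 8.65 and 8.60 in controls, 8.96, 8.89 and 8.93 in GCM LN18 and 8.91, 8.88 and 8.88 in GCM U87-MG, so that every GCM array lay above every control array and the common pattern was absent. Irf1, an interferon-induced transcription factor, measured 7.68, 7.25 and 7.18 in controls, 6.76, 6.92 and 7.20 in GCM LN18 and 6.99, 7.25 and 7.04 in GCM U87-MG, and did not pass (adjusted p = 0.154 and 0.371).

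Interferon genes themselves had low signals on all 9 arrays. Ifnb1 measured 2.73, 2.81 and 2.77 in controls, 2.73, 2.70 and 2.59 in GCM LN18 and 2.61, 2.57 and 2.72 in GCM U87-MG, and Ifna1, Ifna2, Ifna4, Ifna5 and Ifng did not exceed 3.54. None of these 6 genes passed the test, and Ifnb1 had adjusted p = 0.345 and 0.234. Of the 15 measured interferons, receptors and kinases, LN18 medium gave 2 higher and U87-MG medium 0, against 5.23% and 1.51% of all genes called. An unadjusted p under 0.05 was reached by 4 of 15 in each, against 20.6% and 17% of all genes. The 2 called in LN18 medium were Ifnar1 (0.25 ± 0.05, adjusted p = 0.0310) and Ifnar2 (0.18 ± 0.04, adjusted p = 0.0282), the 2 chains of the type I receptor. With the block neither passed (adjusted p = 0.168 and 0.218). Ifnar1 measured 7.74, 7.74 and 7.62 in controls, 7.92, 7.98 and 7.95 in GCM LN18 and 7.84, 7.78 and 7.94 in GCM U87-MG.

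Of 14 genes that sense nucleic acid upstream of interferon, 1 was called with LN18 medium and 0 with U87-MG medium. Over all genes 5.23% and 1.51% were called. An unadjusted p under 0.05 was reached by 5 and 3 of the 14, against 20.6% and 17% of all genes. The called gene was Tlr7, an endosomal receptor of single-stranded RNA, which was lower in GCM LN18 (-0.40 ± 0.08, adjusted p = 0.0212, with the block 0.0975). Of 10 negative regulators of the pathway, 0 were called in either medium, and 1 of 10 had an unadjusted p under 0.05 in each, against the same 20.6% and 17%. With LN18 medium the pattern of the 33 genes was present in 1 of the 15 interferons, receptors and kinases, 3 of the 14 sensing genes and 1 of the 10 regulators, against 9.14% of all genes. With U87-MG medium it was present in 3 of 15, 1 of 14 and 2 of 10, against 9.31%.

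The common pattern was present in 1 of 11 microglia markers with each medium, near the 9.14% and 9.31% of all genes. Of the 11, 6 were called higher in GCM LN18 (Cx3cr1, Tmem119, Aif1, Fcrls, Gpr34 and C1qa), against 5.23% of all genes, and 2 in GCM U87-MG (Cx3cr1 and Fcrls), against 1.51%. With the replicate block Cx3cr1 and Tmem119 passed in the former and Cx3cr1 in the latter. Their mean signal was 8.30 to 8.44 on control arrays, 8.77 to 8.84 in GCM LN18 and 8.61 to 8.81 in GCM U87-MG. The mean over markers of lymphocytes and plasmacytoid dendritic cells, the latter a professional source of interferon, was 3.20 to 3.23 on control arrays and 3.15 to 3.22 on GCM arrays. The part of any other cell type in these differences between arrays was not tested.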

How the data were processed

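RNA of 9 samples of primary mouse microglia was measured on Affymetrix MG-430 PM strips, 1 array each, and groups were taken from the sample titles. The authors deposited log2 signals per probe set, already normalized. The submitters' processing notes name limma, and the study's methods name RMA for other data sets, without saying if it was applied here. Of 45037 probe sets that are no controls, 28898 had 1 symbol, and 28689 of these were matched to a current one. The 28898 gave 17097 genes, each represented by its brightest probe set. Precision is limited by the number of arrays, 3 per group.

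Linear models with 1 mean per group were fitted to all 9 arrays with limma 3.58.1 in R 4.3.3, and a call was an adjusted p (Benjamini-Hochberg, over all genes) under 0.05. The submitters state separate cortical cultures without saying if arrays of the same number share a culture. The 3 arrays of each number have equal means for 100% of probe sets within 1e-06, a property of the deposited values. It makes the correlation of same-numbered deviations void as a check of pairing, and it means that the fit by groups counts 6 residual degrees of freedom where a fit with the replicate block counts 4. Values with the block are therefore given beside the calls. The fits were tested on simulated data.

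The members and the gene lists were chosen with earlier results of these data known. Values on each array were printed for members past an unadjusted p of 0.05, the 10 members with the widest range over the control arrays, Irf7, and the members called with a replicate left out, the last added after seeing the data. From the other lists, called genes and Ifnb1, Ifnar1, Ifnar2 and Irf1 were named. A further gene of that rule is not reported here. Other settings tried were a minimum mean signal of 5, the replicate block, a robust and trended eBayes, the mean of a gene's probe sets, quantile normalization, the compared groups alone, and each replicate number or array left out.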

Additional observations from a re-analysis of the deposited data

How the results depend on the processing

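Under every setting that left no array of the compared groups out, 0 of the 33 interferon response genes were called in any comparison. With replicates or arrays left out, the number called in GCM LN18 ran from 0 to 7, and the 7 came from leaving out replicate 1. It stayed at 0 in GCM U87-MG and between the media. The median log2 fold change of the 33 genes ran from -0.16 to 0.46 in GCM LN18 and from -0.16 to 0.39 in GCM U87-MG when replicates or arrays were left out, and from -0.036 to 0.196 between the media. Leaving out control array 1 alone moved it to 0.31 and 0.30 in the 2 media, with 0 called. Leaving out control array 2 alone gave -0.05 and -0.12, so the sign of these medians rests on the arrays kept. With 1 control array left out, the GCM arrays of its number are set against controls of other numbers alone. The equal means leave only differences within a number intact, so medians with 1 array left out are a description.

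Counts over all genes moved more. The replicate block gave 150 calls in place of 894 in GCM LN18, 8 in place of 259 in GCM U87-MG and 0 in place of 1 between the media, and 0 of the 33 genes in each. With the 6 compared arrays alone, 45 genes were called in GCM U87-MG and 0 between the media, where robust estimation with a trend gave 0 and the minimum signal of 5 gave 2. Leaving out replicates or arrays gave 119 to 856, 9 to 229 and 0 genes. Replicate 1 left out together with the replicate block, chosen after seeing the data, gave 3, 0 and 0 genes. The causes were not tested, apart from the fewer arrays or residual degrees of freedom that these fits have by construction. The number of arrays, 3 per group, limits what can be resolved, with standard errors up to 0.56 on the log2 scale for the 33 genes in the fit by groups.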
